A study of Saccharomyces pastorianus with 12 samples.

Results

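The proteasome is the barrel-shaped protease that destroys ubiquitin-tagged proteins, and 32 genes of it were followed through a production-scale lager fermentation. The genes were chosen by name, as the rows whose probe annotation carried the symbol of a listed subunit or of RPN4. All 32 were found among the 6051 rows tested, each with 1 probe. They were 14 genes of the core particle, 17 of the cap and RPN4, the transcription activator of the set. The yeast was the lager hybrid Saccharomyces pastorianus, per the labels, and total RNA was measured on 12 arrays, 1 at each of 0, 1, 24, 48, 72, 96, 120, 144, 168, 192, 240 and 264 h. No strain, wort or vessel is given in the labels, and the 12 samples may come from 1 fermentation. Probe names are those of Saccharomyces cerevisiae genes, and the copies that a lager hybrid carries from its second parent species were not resolved.

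The core particle is a stack of rings. The outer alpha rings gate the entry and the inner beta rings hold the cutting sites. The cap recognises the ubiquitin tag, removes it, unfolds the protein with a ring of ATPases and feeds it to the core. In Saccharomyces cerevisiae the genes of both parts share an activator, Rpn4, which binds a common promoter box and is itself a short-lived substrate of the proteasome, so that more Rpn4 protein accumulates when the proteasome is overloaded. The arrays measured RNA and not Rpn4 protein, and in bulk RNA fewer cells of a kind and less RNA per cell cannot be told apart.

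A level is the log2 intensity of a probe minus the median of its array. Probes differ in brightness for reasons other than RNA, so no gene was called more or less expressed than another from its level. The percentile of a probe on its array is given only to show how bright or dim the signal was. To put the genes together, each was expressed as its deviation, the level minus its own mean over the 12 arrays. The median gene of an array had an intensity between 762 (168 h) and 10142 (96 h). Arrays also differed in width, the 95th percentile being 4.61 times the 5th at 240 h and 34.4 times at 1 h. Each time was 1 array, so times were pooled into windows by their labels, 24 to 72 h (n = 3), 96 to 144 h (n = 3) and 168 to 264 h (n = 4), with 0 h and 1 h kept as single arrays. Nothing in the labels says that the samples of a window are separate cultures, and the p-values measure the spread between these samples, time included.

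By their mean deviations, core and cap genes were both lowest at the end, at 240 and 264 h. In the core, the place of 240 h below 0 h depended on the scaling and on PRE8. Both were highest at 1 h, where the cap value depended on the scaling. The core mean was -0.35 at 0 h and 0.76 at 1 h. It was 0.37, 0.30 and -0.27 at 24, 48 and 72 h, then -0.01, -0.11 and 0.27 at 96, 120 and 144 h. It was 0.12, -0.21, -0.40 and -0.46 at 168, 192, 240 and 264 h. The highest core array was therefore that of 1 h and the lowest that of 264 h.

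The cap lay near the core at most times and departed from it at 120 and 168 h. The cap mean was -0.29 at 0 h and 0.54 at 1 h, then 0.36, 0.21 and -0.20 at 24, 48 and 72 h. It was -0.20, 0.34 and 0.25 at 96, 120 and 144 h and 0.51, -0.19, -0.68 and -0.64 at 168, 192, 240 and 264 h. After quantile normalization, which gives every array the same distribution, the cap mean at 1 h was 0.16, below its 0.35, 0.31 and 0.22 at 120, 144 and 168 h, and the core mean at 1 h was 0.36, still its highest. At 240 and 264 h the cap means were then -0.49 and -0.60 and the core means -0.19 and -0.43. The core mean at 0 h was then -0.29, below that of 240 h. With median centring and without PRE8, the core means were -0.51, -0.50 and -0.57 at 0, 240 and 264 h. The core minus the cap came to -0.45 at 120 h and -0.39 at 168 h, and lay between -0.07 and 0.28 at the other 10 times. The pooled SD of this difference within windows was 0.27. After quantile normalization the differences at 120 and 168 h were -0.43 and -0.27, and that of 240 h was 0.30. Without PRE8 the differences at 120 and 168 h were -0.47 and -0.32, and that of 1 h was 0.41. The 120 h array thus kept the largest difference under each choice, and the 168 h array did not stand apart under quantile normalization. No test of the core against the cap was made, since the genes were chosen with results of these data known.

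**Figure D1:**
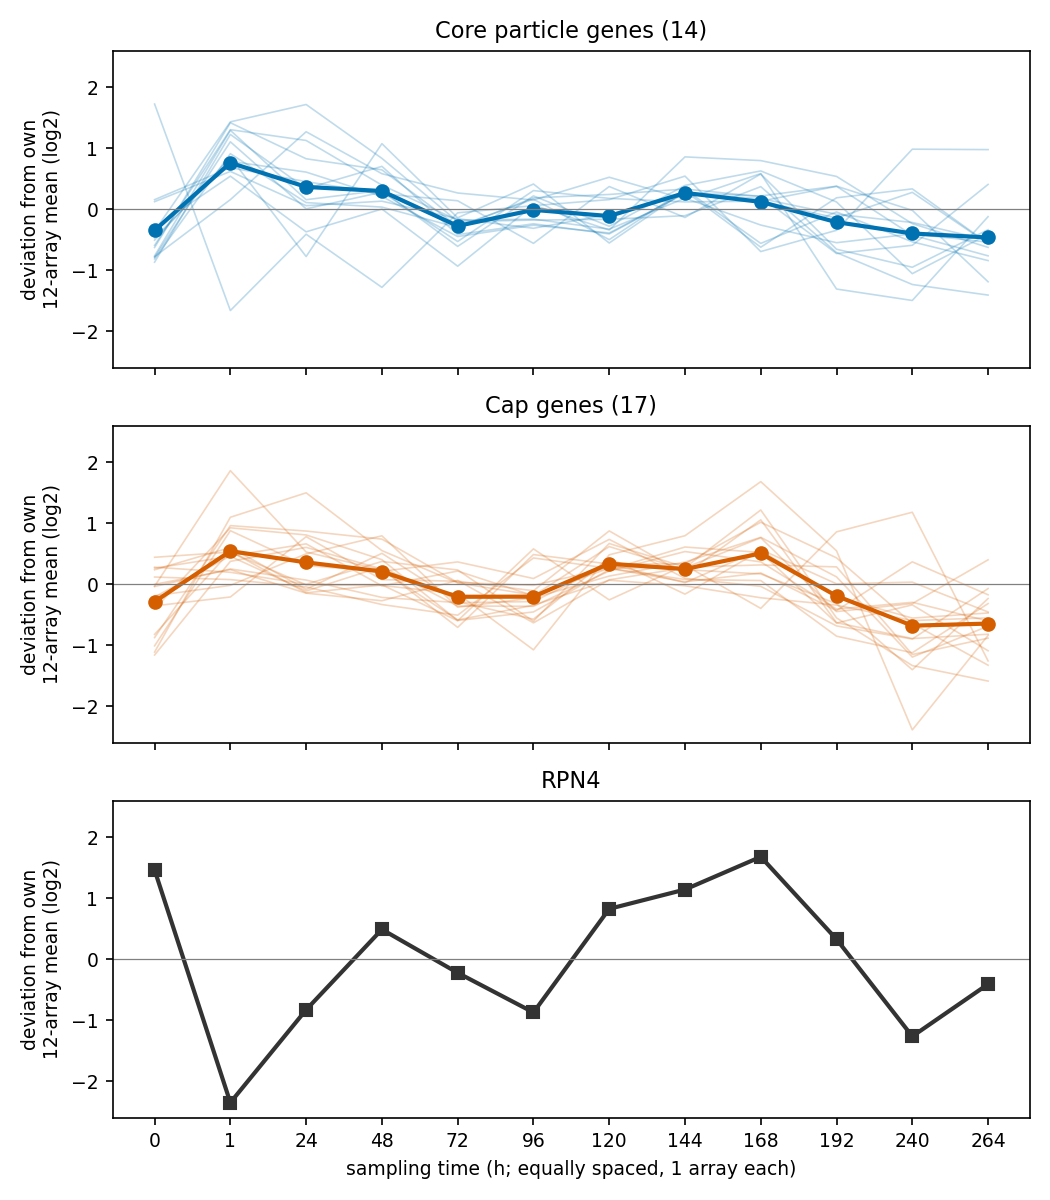
Deviation of each core gene (top, thin blue lines, 14), each cap gene (middle, thin orange lines, 17) and RPN4 (bottom, black) from its own mean over 12 arrays, in log2 units, against sampling time, with 1 array at each time and the times equally spaced. Thick lines are means; both subunit means were low at 240 and 264 h and, with the median centring shown, highest at 1 h (0.76 core, 0.54 cap; 0.36 and 0.16 after quantile normalization), where RPN4 was at its lowest, -2.35.

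The same contrast appeared in where single genes had their highest array. Of 14 core genes, 9 had it at 1 h and 0 at 168 h. Of 17 cap genes, 4 had it at 1 h and 6 at 168 h. Over all rows, 19.8% had their highest array at 1 h and 14.9% at 168 h. After quantile normalization the counts were 6 core and 1 cap gene at 1 h and 0 core and 2 cap genes at 168 h, with 4 cap genes at 120 h, so the cap peak at 168 h depended on the scaling. The lowest array was that of 240 h for 10 of the 31 subunit genes and that of 264 h for 11, against 13.2% and 11.2% of all rows. After quantile normalization these counts were 9 and 11. The median span from lowest to highest level was 1.95 log2 units in the subunit genes and 2.09 over all rows.

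**Figure D2:**
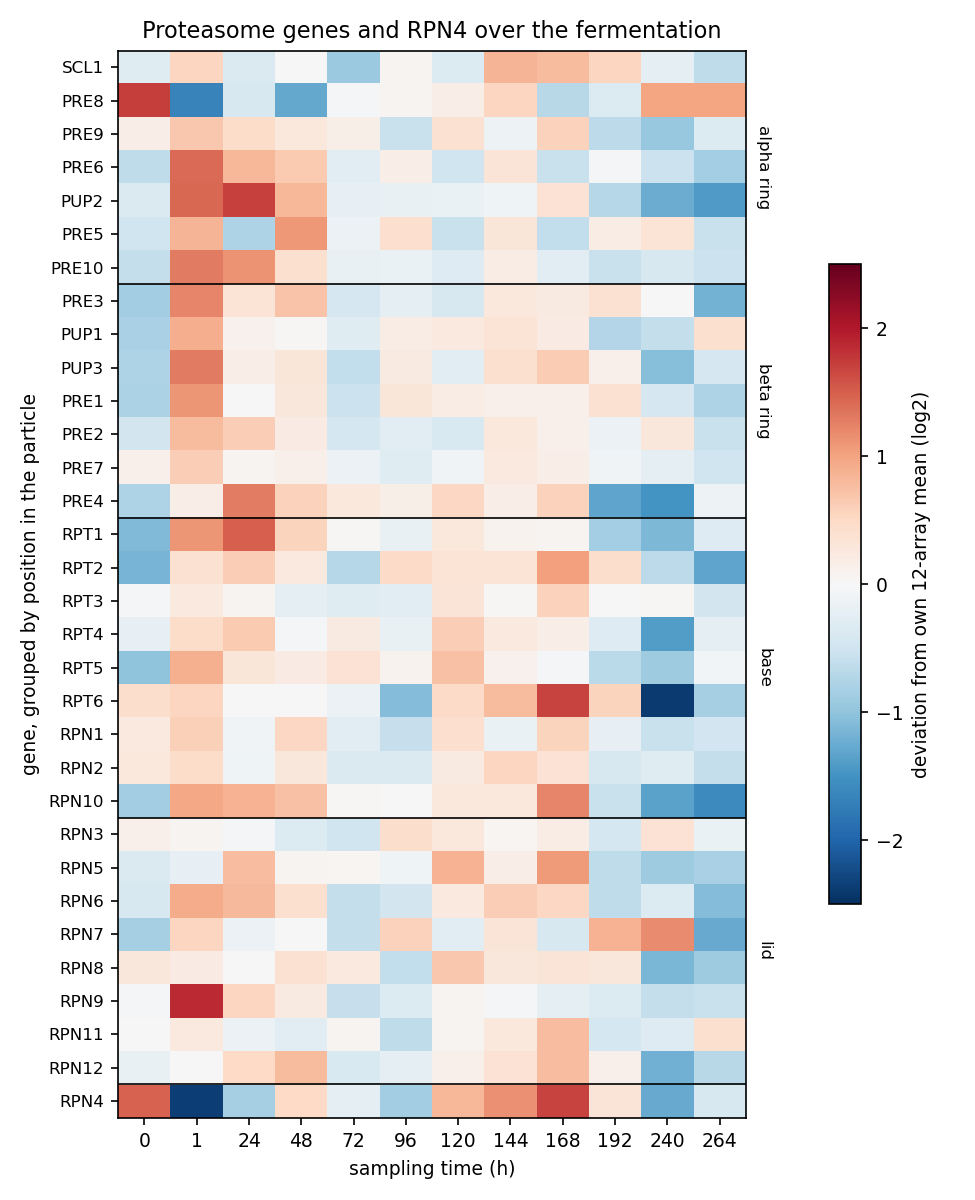
Deviation of each of the 32 genes (rows, grouped by place in the particle) from its own 12-array mean in log2 units (colour), at the 12 sampling times (columns). Red cells gather at 1 and 24 h and, in base and lid, at 168 h; blue cells gather at 240 and 264 h; PRE8 and RPN4 are blue at 1 h.

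PRE8, an alpha ring gene, went against the rest. Its level was -0.40 at 0 h and -3.78 at 1 h, then -2.53, -3.40 and -2.18 at 24 to 72 h, -2.06, -1.96 and -1.58 at 96 to 144 h, and -2.82, -2.47, -1.14 and -1.14 at 168 to 264 h. Its signal was below the 5th percentile of the array on 9 of the 12 arrays, where no background value was used here, and its correlation over the 12 arrays with the mean of the other subunits was -0.80. The other 30 subunit genes had positive correlations with the mean of the rest, from 0.03 for RPN3 to 0.93 for RPN10. Whether the PRE8 probe reads the transcript of this hybrid was not tested. RPT6 at 240 h (level -1.93) was the 1 other subunit signal below the 5th percentile.

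Between 0 h and 1 h RPN4 and most subunit genes differed in opposite directions. With 1 array each, this step has no replicate check and no test. RPN4 stood at 2.05 at 0 h, in the 97.0th percentile of that array, and at -1.76 at 1 h, in the 6.08th. The difference was -3.82 log2 units, -3.87 after quantile normalization and -4.96 with normexp background correction. The 1 h signal was dim and its background unknown, so no exact fold is given. Of the 31 subunit genes 28 had the higher level on the 1 h array, as did 51.7% of all rows, and the median difference was 1.25 against 0.05. Past 2-fold, 16 of the 31 were higher, against 22.7% of all rows, and 1, PRE8, was lower, against 18.3%. The 1 h array was also the widest of the 12. After quantile normalization the median was 0.38, with 19 of 31 genes higher and 12 past 2-fold higher, against 17.5% of all rows.

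In the core both rings were higher at 1 h except for PRE8. All 7 beta genes were higher at 1 h (median 1.73), and 6 were so after quantile normalization (median 1.19). PRE3, the caspase-like cutting subunit, went from 0.30 to 2.39, which is 4.27-fold, PUP1, the trypsin-like one, from -0.22 to 1.51 (3.31-fold), and PRE2, the chymotrypsin-like one, from -0.66 to 0.60 (2.38-fold). After quantile normalization their differences were 1.13, 1.30 and 1.19. PUP3 and PRE1, non-cutting beta subunits, differed by 2.06 and 1.90 (1.81 and 1.90 after quantile normalization). In the alpha ring 6 of 7 genes were higher, by 0.52 to 2.05 (the beta genes by 0.50 to 2.10), PRE6 by 2.05 and PRE10 by 1.90, and PUP2 by 1.79 but by -0.15 after quantile normalization.

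The cap split by gene at the same step. Its 17 genes had a median difference of 0.37 with 15 higher, but of -0.02 with 8 higher after quantile normalization, so the cap as a whole had no stable direction. The core median was 1.54, and 1.03 with 11 of 14 higher after quantile normalization. Of the ATPase genes, RPT1 (2.21), RPT5 (1.89) and RPT2 (1.54) were well above RPT4 (0.67), RPT3 (0.29) and RPT6 (0.09). After quantile normalization RPT1, RPT5 and RPT2 differed by 1.33, 1.43 and 1.18, and RPT3 and RPT6 by -0.02 and -0.47. RPN10, a ubiquitin receptor, differed by 1.84 (0.65 after quantile normalization), while the large scaffolds RPN1 and RPN2 differed by 0.37 and 0.20 (-0.46 and -0.36). In the lid, RPN9 (1.90), RPN7 (1.36) and RPN6 (1.33) were higher, and RPN11, the enzyme that removes the ubiquitin chain, differed by 0.24 and its partner RPN8 by -0.08. After quantile normalization RPN9, RPN7 and RPN6 kept positive differences of 1.09, 1.29 and 0.60, and RPN11 and RPN8 had -0.24 and -0.49.

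**Figure D3:**
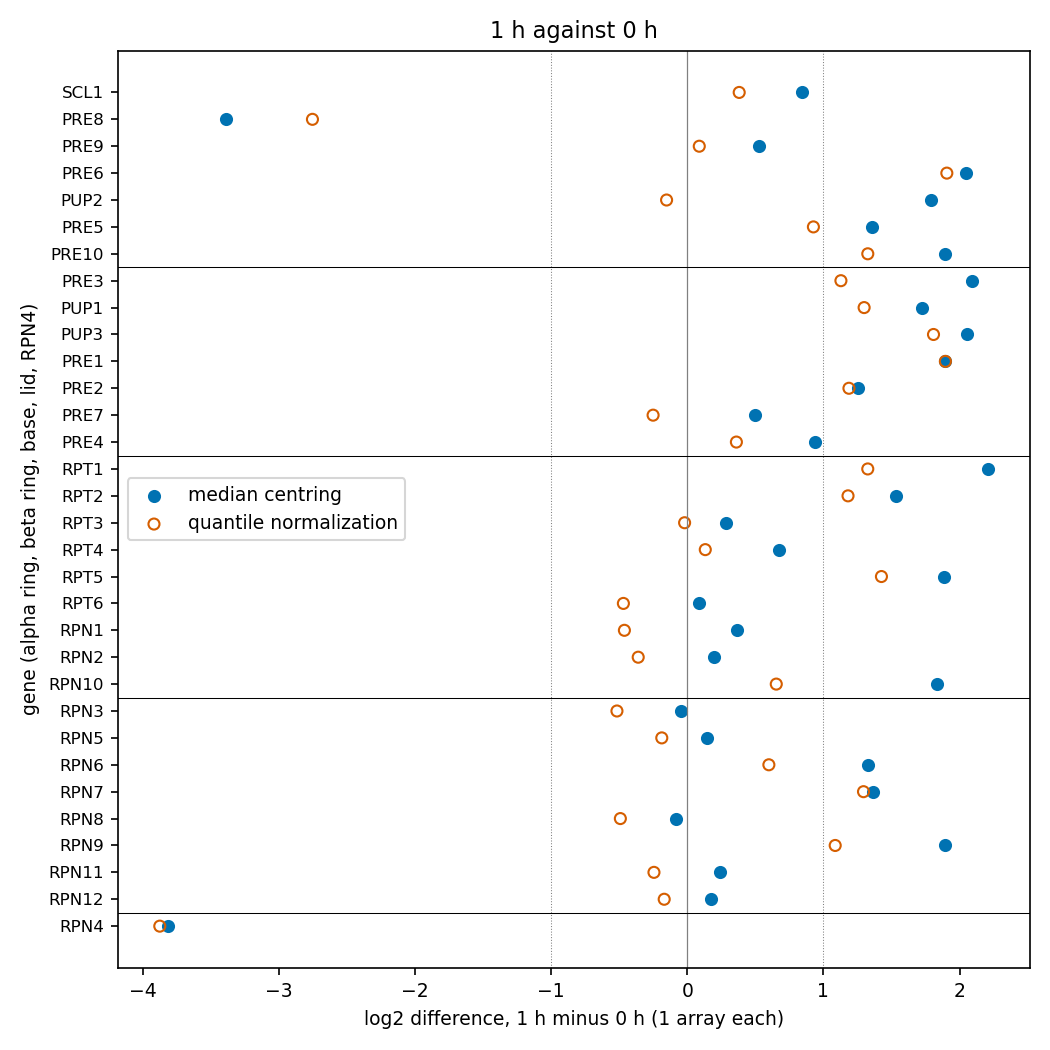
Log2 difference of each of the 32 genes between 1 h and 0 h, with 1 array each (filled blue: median centring; open orange: quantile normalization; dotted lines: 2-fold). The beta ring genes other than PRE7 lie to the right of 0 under both scalings, RPN1, RPN2 and most lid genes lie within the 2-fold lines, and RPN4 and PRE8 lie far to the left.

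By their median differences, the subunit genes at 24, 48 and 72 h lay between the 0 h and 1 h arrays. Single genes lay outside, such as RPN3 below both arrays and PRE4 above both. Against 0 h, 21 of 31 were higher, and 48.7% of all rows, with a median of 0.57 (0.30 after quantile normalization), 9 of them past 2-fold higher, against 12% of all rows, and 1 past 2-fold lower, against 9.07%. After quantile normalization 5 were past 2-fold higher, against 11.0% of all rows. Against 1 h, 5 of 31 were higher, and 44.2% of all rows, with a median of -0.58 (-0.20 after quantile normalization). In all 5 were past 2-fold lower, against 15.1% of all rows, a share of members close to that of all rows, and 1 was past 2-fold higher, against 9.12%. After quantile normalization 1 was past 2-fold lower, against 5.47% of all rows. RPN4 was at -0.24, 1.08 and 0.36 at 24, 48 and 72 h, below 0 h on all 3 arrays and above 1 h on all 3. These comparisons rest on 1 array at 0 h or 1 h and were not tested.

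PUP2 and RPT1 had their highest level at 24 h. PUP2, an alpha ring gene, was at 1.97 at 0 h and 3.76 at 1 h, then 4.05, 3.16 and 2.13 at 24, 48 and 72 h. It was at 2.15, 2.16 and 2.22 at 96 to 144 h and 2.70, 1.62, 1.09 and 0.92 at 168 to 264 h. With median centring the arrays of 192, 240 and 264 h were the 3 lowest of the course. By its percentile on the array PUP2 stood no lower at 240 h (96.3) than at 1 h (96.2), and at 264 h it stood at 85.1. RPT1, an ATPase of the base, was at 0.12 and 2.33 at 0 and 1 h, then 2.73, 1.78 and 1.25, then 1.05, 1.49 and 1.31, and at 1.29, 0.38, 0.11 and 0.91 from 168 h on. PRE4, a beta ring gene, was at 0.44 and 1.38, then 2.49, 1.80 and 1.49, then 1.37, 1.75 and 1.39, and at 1.81, -0.09, -0.28 and 1.10 at the end. In PRE4 and RPT1 the late arrays spread widely, with 168 h inside the range of 24 to 72 h.

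The cutting subunits showed little difference between the windows. PRE2 was at 0.42, 0.02 and -0.63 at 24 to 72 h, at -0.45, -0.58 and 0.07 at 96 to 144 h and at -0.05, -0.33, 0.09 and -0.75 at 168 to 264 h. PRE3 was at 1.51, 1.87 and 0.75, then 0.93, 0.76 and 1.44, then 1.39, 1.55, 1.15 and -0.02. PUP1 was at 0.70, 0.63 and 0.30, then 0.78, 0.84 and 0.93, then 0.80, -0.13, 0.00 and 1.00. The 3 arrays of 96 to 144 h lay above those of 24 to 72 h in PUP1, and all other windows of these 3 genes overlapped.

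From 24 to 72 h to 96 to 144 h the subunit genes showed no common shift. Of the 31 genes 14 were higher and 17 lower, against 49.8% of all rows lower, with a median of -0.06 against 0.00 over all rows. In limma 0 of the 32 genes passed an adjusted p of 0.05, against 0% of all rows, and 0 had an unadjusted p under 0.05, against 10.3%. The largest differences were in PUP2 (-0.93, SE 0.53) and RPT1 (-0.64, SE 0.46) downward and in PRE8 (0.84, SE 0.51) and SCL1, an alpha ring gene (0.63, SE 0.48), upward. SCL1 was at 0.26, 0.64 and -0.30, then 0.70, 0.29 and 1.49, and then at 1.43, 1.17, 0.40 and 0.01. Groups did not overlap, upward, for PUP1, PRE8 and RPN3, 3 of 31, against 7.24% of all rows, and downward for 0, against 9.95%.

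From 24 to 72 h to 168 to 264 h, 25 of the 31 subunit genes were lower, against 47.1% of all rows, with a median of -0.22 against 0.04. The core had 12 of 14 lower (median -0.21) and the cap 13 of 17 (median -0.49). In limma 0 of the 32 genes passed, against 4.25% of all rows. At an unadjusted p under 0.05 there were 5, all lower, against 17.7% of all rows in either direction. The largest downward differences were those of PUP2 (3.11 ± 0.96, SD, n = 3, against 1.58 ± 0.80, n = 4; difference -1.53, SE 0.50; limma adjusted p = 0.105) and PRE4 (1.93 ± 0.51 against 0.64 ± 0.99; -1.29, SE 0.49; adjusted p = 0.169). RPT1 differed by -1.25 (SE 0.43; adjusted p = 0.129) and RPN10 by -1.11 (SE 0.55; adjusted p = 0.302). By percentile on the array PUP2 stood at 98.0, 97.6 and 97.2 at 24 to 72 h. At 168 to 264 h it stood at 95.9, 96.0, 96.3 and 85.1, so its level difference depends on array width. The largest upward differences, in PRE8 (0.81) and SCL1 (0.55), had limma adjusted p of 0.390 and 0.553. Every late array lay below every array of 24 to 72 h in PRE10 and RPT5, 2 of 31 genes, against 7.35% of all rows, and the reverse held for 0, against 5.19%.

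The 168 h array differed from the 3 that followed it, less so after quantile normalization. The mean deviation of the subunit genes was 0.33 at 168 h and -0.20, -0.55 and -0.56 at 192, 240 and 264 h. After quantile normalization these means were 0.10, -0.04, -0.35 and -0.52, and that of 144 h was 0.31, above 168 h. With median centring 24, 11, 6 and 3 of the 31 genes were above their own mean on these 4 arrays. Of all rows 53.0%, 48.6%, 47.8% and 47.7% were. Without the 168 h array 26 of 31 genes were lower than at 24 to 72 h, with a median of -0.55. Then PUP2 (-1.90, SE 0.46, limma adjusted p = 0.0157), PRE4 (-1.68, SE 0.45, adjusted p = 0.0262) and RPN10 (-1.70, SE 0.41, adjusted p = 0.0157) passed. These were 3 of 32, against 7.92% of all rows, a share of members close to that of all rows. Without the 72 h array the median was -0.55 and PUP2 passed (-2.02, SE 0.52; adjusted p = 0.0297), against 6.10% of all rows. The median was -0.11 without 264 h and -0.45 without 192 h, and no member passed without any other array of these windows.

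RPN10 showed the late step in full. This ubiquitin receptor was at 0.77 and 2.61 at 0 and 1 h, then 2.52, 2.39 and 1.68, then 1.63, 1.92 and 1.92. It was at 2.87 at 168 h, the highest level of its course, and at 1.10, 0.32 and 0.06 at 192, 240 and 264 h. By its percentile on the array it stood no higher at 168 h (96.5) than at 96 h (96.6). The 240 and 264 h values were the 2 lowest of its 12. RPT6, an ATPase, had the same turn with its highest level at 168 h (2.14) and its lowest at 240 h (-1.93, near the bottom of that array), after 1.01 at 192 h and before -0.38 at 264 h.

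Against 96 to 144 h, 28 of the 31 subunit genes were lower at 168 to 264 h, compared with 46.9% of all rows, with a median of -0.34 against 0.03. The 3 exceptions were RPN11 (0.20), PRE2 (0.06) and RPT3 (0.02). RPN11 was at 0.64 and 0.88 at 0 and 1 h, at 0.49, 0.37 and 0.70 at 24 to 72 h, at 0.00, 0.71 and 0.91 at 96 to 144 h and at 1.40, 0.19, 0.32 and 1.04 at 168 to 264 h. Its late arrays spanned most of the range of its course, and the windows overlapped. In limma 0 of the 32 passed, against 0% of all rows, and 0 had an unadjusted p under 0.05, against 2.30%. PRE4 (-0.87, SE 0.49) and RPN10 (-0.74, SE 0.55) had the largest downward differences. Groups did not overlap, downward, in RPT5, 1 of 31, against 1.24% of all rows, and upward in 0, against 1.98%. Without 168 h the median was -0.54 and 29 of 31 genes were lower, and it ranged from -0.45 to -0.24 when any other array was left out.

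**Figure D4:**
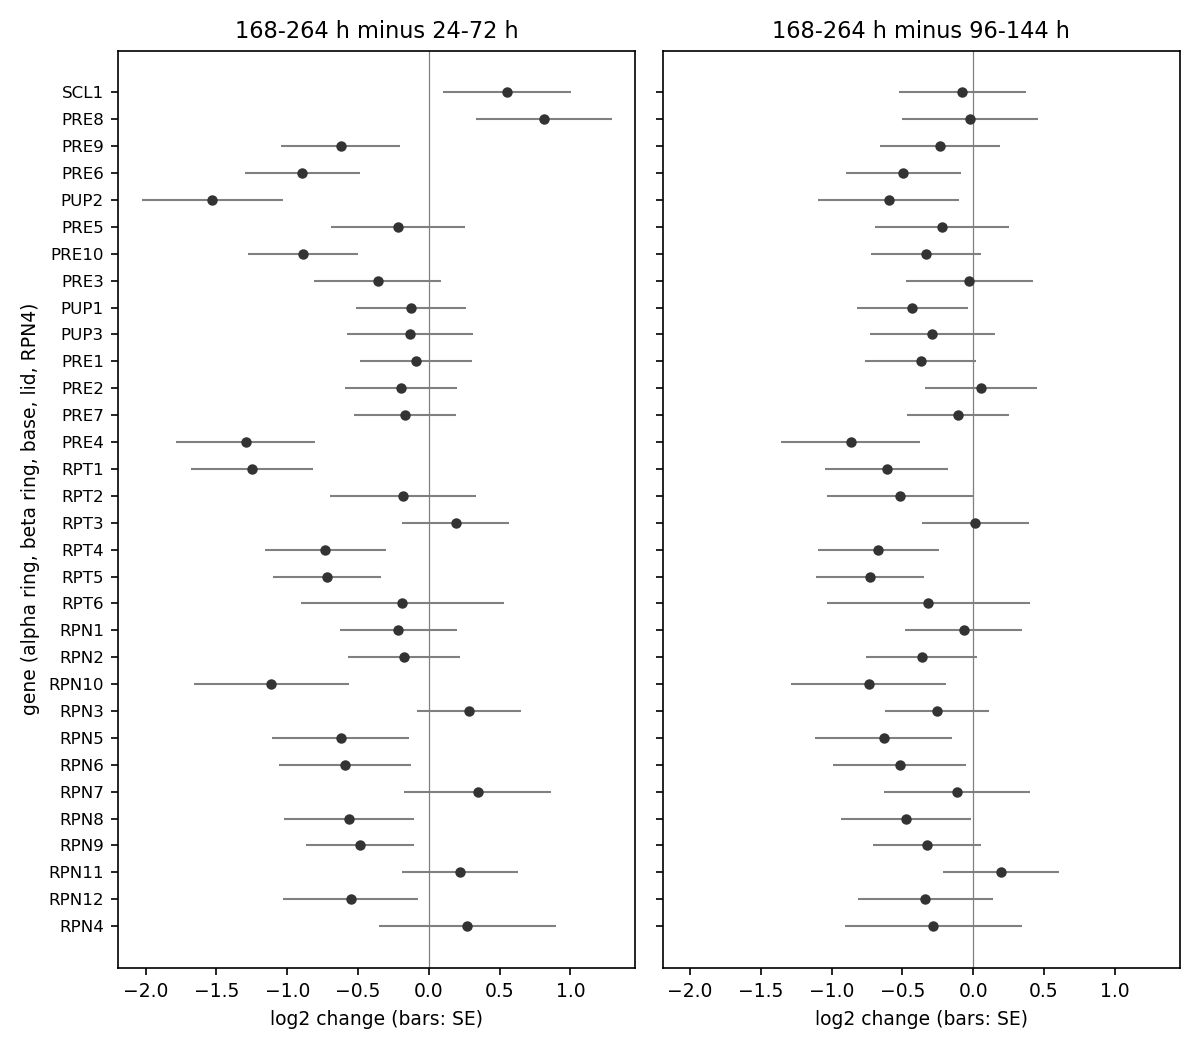
Log2 difference of each of the 32 genes from 24 to 72 h (left, n = 3) and from 96 to 144 h (right, n = 3) to 168 to 264 h (n = 4), with SE from limma as bars. Most points lie left of 0, with PUP2, PRE4, RPT1 and RPN10 farthest left in the left panel, and none passed the adjusted threshold.

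The spline over the whole course gave the same count. With all 12 arrays 0 of the 32 genes passed, against 0.0331% of all rows, and 3 (PUP2, RPT6 and RPN10) had an unadjusted p under 0.05, against 16.1%. Without the 0 h array the spline called 9 of the 32, RPN4 (adjusted p = 0.0383), PUP2 (0.00215), RPN10 (0.00884), RPN9, PRE10, PRE6, PRE8, RPT1 and RPT2 (between 0.0164 and 0.0359), against 18.4% of all rows.

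RPN4 had its own course. It was at 2.05 and -1.76 at 0 and 1 h, at -0.24, 1.08 and 0.36 at 24, 48 and 72 h, and at -0.29, 1.41 and 1.73 at 96, 120 and 144 h. It was at 2.27 at 168 h, its highest value, and at 0.92, -0.68 and 0.18 at 192, 240 and 264 h. The windows overlapped, and their means were 0.40 ± 0.66 (SD, n = 3), 0.95 ± 1.08 (n = 3) and 0.67 ± 1.25 (n = 4). No window difference passed in limma (adjusted p = 0.839, 0.861 and 1.00 for 96 to 144 h against 24 to 72 h, and for 168 to 264 h against 24 to 72 h and against 96 to 144 h). The late minus early difference of 0.27 turned to -0.26 when 168 h was left out and to -0.05 when 24 h was, and reached 0.72 when 240 h was, so it had no stable direction.

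Over the 12 arrays the subunit genes did not track RPN4 as a set. Their Pearson correlations with RPN4 ran from -0.52 to 0.58 with a median of 0.00, against 0.02 over all other rows, and 16 of 31 were above 0. The points are successive times of possibly 1 fermentation, share 2 arrays with extreme RPN4 values and carry no p. The median was -0.25 in the core, with 5 of 14 above 0, and 0.13 in the cap, with 11 of 17 above 0. Without the 1 h and 168 h arrays, those farthest from the median of RPN4, the median over the 31 was 0.17, 0.03 in the core and 0.31 in the cap. Spearman's rho had a median of 0.07 with 12 arrays and 0.19 with 10.

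Single cap genes lay closer to RPN4 than any core gene. With 12 arrays RPT6 (0.58), RPN8 (0.52) and RPN12 (0.47), a lid gene, were the most like it, and PRE10 (-0.52), PRE6 (-0.51) and PRE2 (-0.43) the least. Without 1 h and 168 h the values were 0.82 for RPT6, 0.77 for RPN8, 0.74 for RPN2 and 0.71 for RPN1, and the most alike core gene was PRE7, a beta ring gene, at 0.64. After quantile normalization RPT6, RPN8, RPN12, RPN1 and RPN2 had 0.68, 0.65, 0.58, 0.61 and 0.50. RPN1 was at 1.16 and 1.52 at 0 and 1 h, at 0.84, 1.43 and 0.63 at 24 to 72 h, at 0.35, 1.35 and 0.76 at 96 to 144 h and at 1.47, 0.72, 0.37 and 0.45 at the end. Like RPN4 it stood above its own mean at 0, 48, 120 and 168 h and well below it at 96 and 240 h. At 1 h RPN1 had its highest level with median centring and RPN4 its lowest. After quantile normalization RPN1 too was lower at 1 h than at 0 h, by -0.46. At 144 h the deviation of RPN1 was -0.16 and that of RPN4 1.15, and at 192 h these were -0.20 and 0.33.

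**Figure D5:**
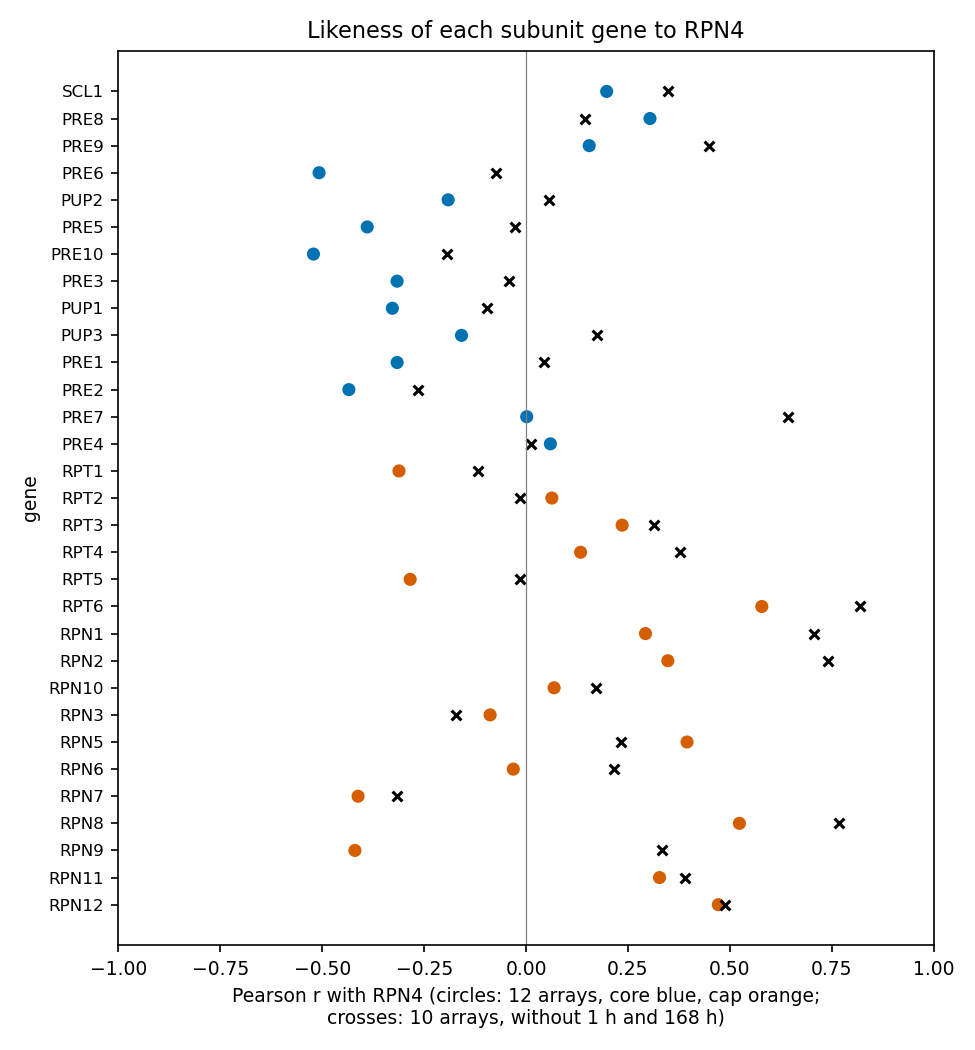
Pearson correlation of each of the 31 subunit genes with RPN4 over 12 arrays (circles, core blue and cap orange) and over the 10 arrays without 1 h and 168 h (crosses). Circles run from -0.52 to 0.58, and the crosses of RPT6, RPN8, RPN2 and RPN1 lie above 0.70.

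The named genes outside the set whose course was most like RPN4 over the 12 arrays were YMR090W (r = 0.96), MOH1 (0.94), DCS2 (0.94), IZH2 (0.93), FMS1 (0.93), MSC1 (0.93), BDF2 (0.92) and PFK26 (0.92), found among all named genes and given with no p. After quantile normalization 7 of the 8 kept r between 0.85 and 0.95, and IZH2 had 0.67. The genes most like the mean deviation of the 31 subunits were SHM1 (0.96), RPL40A (0.96), YBL086C (0.95), TEF2 (0.95), GTS1 (0.95), SMU2 (0.94), GPI18 (0.94) and BRR6 (0.94). RPL40A encodes a fusion of ubiquitin to a ribosomal protein and TEF2 a translation elongation factor. After quantile normalization SHM1, RPL40A, YBL086C, GTS1 and GPI18 had 0.88, 0.91, 0.91, 0.86 and 0.90, and SMU2, TEF2 and BRR6 had 0.51, 0.72 and 0.76.

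Of the 7 listed genes that act upstream of RPN4 or on the turnover of its protein, all were lower at 1 h than at 0 h, with a median of -1.14 (-1.02 after quantile normalization) against 0.05 over all rows. Past 2-fold, 4 were lower, against 18.3% of all rows. UBR2, the ubiquitin ligase that marks Rpn4, differed by -3.36 and PDR1, an activator of multidrug resistance, by -2.63, but on the 1 h array both probes ranked under the 5th percentile. YAP1, the oxidative stress activator, differed by -1.34, PDR3, the partner of PDR1, by -1.14, MUB1, the cofactor of UBR2, by -0.67, HSF1, the heat shock factor, by -0.51 and RAD6, the conjugating enzyme that works with UBR2, by -0.47. In the window tests 0 of the 7 passed in limma in any of the 3 comparisons, against 0%, 4.25% and 0% of all rows. The counts at an unadjusted p under 0.05 were 1, 1 and 0, against 10.3%, 17.7% and 2.30% of all rows, so they were close to the background. RAD6 had the largest difference, from 0.38 ± 0.37 at 24 to 72 h (SD, n = 3) to 1.43 ± 0.24 at 96 to 144 h (n = 3; limma adjusted p = 0.395). MUB1 had the smallest, at -0.05 there and 0.09 at 168 to 264 h, and UBR2 differed by 0.35 from 96 to 144 h to 168 to 264 h.

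Among 14 measured assembly factors and regulators of the proteasome 7 were higher and 7 lower at 1 h (median 0.00). UMP1, a chaperone that is enclosed in the maturing core, went from 0.26 to 3.35 (difference 3.09, and 1.72 after quantile normalization), and IRC25, an alpha ring assembly chaperone, differed by 1.99 (1.55). SPG5, a regulator of the proteasome in stationary phase, differed by -1.91 (-1.92). UMP1 was at 3.08, 1.21 and 1.06 at 24 to 72 h, 0.32, 1.27 and 0.69 at 96 to 144 h and 1.74, -0.33, -0.70 and 0.23 at the end, with its highest array at 1 h and its lowest at 240 h. In limma 0 of the 14 passed in any of the 3 window comparisons, against 0%, 4.25% and 0% of all rows. At an unadjusted p under 0.05, 1 was lower at 96 to 144 h than at 24 to 72 h, 3 were lower and 1 higher at 168 to 264 h than at 24 to 72 h, and 0 differed between the later windows. Over all rows these shares were 10.3%, 17.7% and 2.30% in either direction. TMA17, a chaperone of base assembly, had the largest downward difference (-2.06, SE 0.72; adjusted p = 0.129) and SPG5 the largest upward (1.92, SE 0.71; adjusted p = 0.157). SPG5 was at -2.91, -1.59 and 0.16 at 24, 48 and 72 h, and its signal was dim at 24 and 48 h (percentiles 1.17 and 5.11). TMA17 was at 1.79 and 1.06 at 0 and 1 h, at 4.22, 3.56 and 2.98 at 24 to 72 h, at 2.47, 3.71 and 2.62 at 96 to 144 h and at 3.85, 1.80, -0.36 and 0.79 at 168 to 264 h. IRC25 was at 1.03 ± 0.65 at 24 to 72 h and at -0.53 ± 0.09 at 96 to 144 h (difference -1.56, limma adjusted p = 0.186), with no overlap. It was the 1 of 14 without overlap, downward, against 9.95% of all rows, and 0 were so upward, against 7.24%. From 24 to 72 h to 168 to 264 h 2 of 14 did not overlap, downward, against 7.35% of all rows. The smallest limma adjusted p of the list there was 0.0677. TMA17 and SPG5 had the largest differences either way from 96 to 144 h to 168 to 264 h too, -1.41 and 0.34.

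Of the 24 listed genes of the ubiquitin route and of delivery to the proteasome, 17 were higher at 1 h than at 0 h, against 51.7% of all rows. Their median difference was 0.30, against 0.05 over all rows. After quantile normalization 13 of the 24 were higher, with a median of 0.07. UBR1, the ligase of the N-end rule, had the largest difference (2.71, and 1.32 after quantile normalization). UBR1 was at 3.74, 3.06 and 1.88 at 24 to 72 h, at 1.20, 1.51 and 1.62 at 96 to 144 h and at 2.67, 1.12, 0.24 and 0.59 at 168 to 264 h, a course with its highest array at 24 h, like PUP2. Its window differences from 24 to 72 h, -1.45 and -1.74, had limma adjusted p of 0.395 and 0.0913. UBC5, a conjugating enzyme used under stress, had the largest upward differences from 24 to 72 h, 1.08 to 96 to 144 h and 0.96 to 168 to 264 h. From 96 to 144 h to 168 to 264 h CDC48, the ATPase that pulls ubiquitin-tagged proteins apart, differed by -0.67, the lowest, and HUL5, a ligase that extends chains at the proteasome, by 0.98, the highest. In limma 0 of the 24 passed in any window comparison, against 0%, 4.25% and 0% of all rows. At an unadjusted p under 0.05 there were 2, 2 and 1, against 10.3%, 17.7% and 2.30% of all rows, so no count stood clear of the background.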

How the data were processed

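The deposited values are linear probe intensities, whole numbers for 6084 probes on 12 arrays. How the authors scanned the arrays and corrected or scaled the values is not given in the sources used here, and no background value or detection call was used. Signal over background is therefore unknown, and the number of arrays limits the precision. Probes were named through the platform annotation (5523 with 1 symbol, 561 with none, 0 with several). The 3 intensities of 0, all at 168 h, were treated as missing. Values were taken to log2, the 32 symbols with several probes were averaged, and from every array its own median was subtracted. The array medians spanned 3.73 log2 units as deposited, and all changes are relative to them. Rows needed values on at least 9 arrays.

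Windows were compared with limma 3.58.1 in R 4.3.3 (12 arrays in 5 groups, lmFit with 7 residual and eBayes with 9.59 prior degrees of freedom). Two-sided p-values were adjusted by Benjamini-Hochberg over all 6051 rows, at a threshold of 0.05. The whole course was tested with a natural cubic spline of 3 degrees of freedom in hours. Comparisons with 1 array were not tested, and a 2-fold difference (1 log2 unit) was counted. The fits were tested on simulated data. Alternatives were quantile normalization, equalised median absolute deviations, centring on the 75th percentile, normexp with an offset of 50, removal of the dimmest 25% of rows, an intensity trend, 0 and 1 h in 1 group, sampling order in the spline and each array left out. Leaving out PRE8 was added after seeing the data.

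The members, windows and gene lists were chosen with earlier results of these data known. The genes given in every array were RPN4, the cutting subunits and the 2 largest differences each way in each window comparison. Outside the set, the genes named were those with the largest and smallest difference in each list, by their differences, and the 8 genes most like RPN4 or the subunit mean, by their correlations. RPN1, RPT6, PRE10 and other members given beside these, and the array values of UMP1, TMA17, SPG5 and UBR1, were chosen after their values were seen. SEM1, 1 of 15 listed assembly factors and regulators, was not among the symbols. Promoter sequences were not used here, so no promoter motif was counted. Figures were drawn with matplotlib 3.10.9.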

Additional observations from a re-analysis of the deposited data

Results flagged for a closer look

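RPN5, a lid gene, had 1 late array far from the other 3. Its level was 1.87 at 168 h, and between -0.08 and 0.18 at 192, 240 and 264 h. The gap to the nearest of the others was 0.866 of the range of the 4 arrays, above Dixon's 95% critical value for 4 samples. Of the 34 series of late values examined in this way 1 stood out, and chance gives about 1 in 20. The 168 h array also had the highest level of the 4 in RPN4, with 2.27 against 0.92 or less.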

How the results depend on the processing

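No paired analysis was possible because there was 1 array at each time and the labels name no pairs of samples. Signal over background is unknown, so dim probes such as PRE8 carry the least weight, and the 1 h and 240 h arrays, the widest and the narrowest, depend most on the scaling. The cause of the shifts below was not tested.

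The spline called 2 rows. It called 68 after quantile normalization, 53 with equalised median absolute deviations, 8 with 75th percentile centring, 4 with normexp, 0 with the intensity trend and 19 with sampling order in place of hours. Leaving out 1 array gave 0 to 1113 rows and 0 to 9 of the 32 genes. The median of the 31 subunit genes from 0 h to 1 h, 1.25, was 0.38 after quantile normalization, 0.44 with equalised deviations and 0.81 with 75th percentile centring. From 0 h to 24 to 72 h, 10 of the 31 subunit genes differed past 2-fold either way, and 6 did under each of these 3 scalings. Leaving out 1 array gave 6 to 11, with medians from 0.40 to 0.78. From 1 h to 24 to 72 h 9.12% of all rows were past 2-fold higher and 15.1% lower, and after quantile normalization 428 and 331 of the 6051. In the 31 subunit genes the count was 6, and 1, 2 and 3 in the same order of scalings. Leaving out 1 array gave 2 to 10, with medians from -0.67 to -0.38, and the median of -0.58 was -0.20 after quantile normalization.

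From 24 to 72 h to 168 to 264 h, 257 rows passed, and 5 with 0 h and 1 h in 1 group. Leaving out 1 array gave 0 to 479 rows, with 0 without 24 h and 10 without 48 h, 0 to 3 of the 32 genes, and medians of the subunits from -0.55 to -0.11. From 96 to 144 h to 168 to 264 h leaving out 1 array gave 0 to 30 rows and medians from -0.54 to -0.24. From 24 to 72 h to 96 to 144 h it gave 0 to 132 rows and medians from -0.16 to 0.12.

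PRE3 changed sign with the scaling. Its difference from 24 to 72 h to 168 to 264 h, -0.36, was 0.21 after quantile normalization. That from 96 to 144 h, -0.03, was 0.23 after quantile normalization, 0.057 with equalised deviations and 0.10 with normexp. Leaving out 1 array also turned the sign of small differences. From 24 to 72 h to 168 to 264 h these were PRE2 (-0.48 to 0.045), PUP1 (-0.32 to 0.059) and RPN4 (-0.26 to 0.72). From 96 to 144 h they were PRE2 (-0.074 to 0.25), PRE3 (-0.21 to 0.32), RPN4 (-0.90 to 0.17) and RPN11 (-0.072 to 0.38). The difference of RPN4 between 0 h and 1 h was -4.96 with normexp.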
